A study of Mus musculus with 12 samples.

Results

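The insulin-like growth factor (IGF) system was followed in primary brain endothelial cells (BECs) of the mouse through 10 genes. These were 2 ligands (Igf1 and Igf2), 2 receptors (Igf1r and Igf2r) and 6 binding proteins (Igfbp2 to Igfbp7), found by their symbols, and all 10 were listed in the NX/NG and in the OGD-R table, which hold 32419 genes between them. BECs were isolated from brains of wild-type mice (Cort+/+) or of mice lacking the neuropeptide cortistatin (Cort-/-), all of strain C57BL/6 by the labels and C57BL/6J by the methods (8 weeks of age where an age is stated), and were enriched with puromycin for 60 h. The deletion is carried by the whole animal, not by the endothelium alone, and each biological replicate was pooled from 3 mice of a genotype. Cultures were kept for 24 h in normoxia and normoglycemia (NX/NG, 21% O2 and 5.5 mM glucose) or were exposed for 4 h to 1% O2 in medium free of glucose and serum and returned to the control conditions for 20 h (OGD-R). RNA-seq libraries of 3 Cort+/+ and 2 Cort-/- replicates were analysed in each environment, 10 of the 12 samples listed. The third Cort-/- replicate under NX/NG and replicate 2 of Cort-/- after OGD-R are not analysed here. The labels also name a stroke model as the disease state of every sample, whereas the methods describe exposure in vitro.

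IGF-1 and IGF-2 are secreted peptides related to insulin. Both activate the receptor tyrosine kinase encoded by Igf1r, which signals through the PI3K-AKT and MAPK pathways to promote growth and survival, while the product of Igf2r binds IGF-2 and carries it to the lysosome for degradation. In the extracellular space most IGF is held by binding proteins, which prolong its life and limit or direct its access to the receptor. Igfbp7 is the outlier of the family, since its product binds IGF weakly and is known as a secreted protein of the vascular basement membrane.

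None of the members lies on chromosome 4, which holds Cort. Igfbp2 and Igfbp5 are neighbours on chromosome 1, with 5.46 kb between their 3' ends, and Igf2 lies 72.6 kb from the imprinted H19 gene on chromosome 7 (GENCODE vM21, GRCm38). The stretch of 250 bases before the annotated start is shown, from RefSeq on GRCm38.p6, for the 4 members with a single start whose levels were lower in Cort-/- than in Cort+/+ libraries under NX/NG (Igfbp4, Igfbp5, Igfbp6 and Igf2r), and for Igfbp7, the most abundant member, whose genotypes overlapped in both environments. Sequences run 5' to 3' on the strand of the gene, and capitals mark 3 motifs searched on both strands, the GC box GGGCGG, the TATA box core TATAAA and the core ACGTG of a hypoxia response element, which may overlap.
Igfbp4 (chr11:99040994-99041243, plus strand): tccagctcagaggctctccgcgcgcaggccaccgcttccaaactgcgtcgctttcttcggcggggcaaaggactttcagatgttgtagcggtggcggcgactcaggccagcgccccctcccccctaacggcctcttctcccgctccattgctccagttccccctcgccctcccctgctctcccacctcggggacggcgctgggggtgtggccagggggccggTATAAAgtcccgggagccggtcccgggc
Igfbp5 (chr1:72874866-72875115, minus strand): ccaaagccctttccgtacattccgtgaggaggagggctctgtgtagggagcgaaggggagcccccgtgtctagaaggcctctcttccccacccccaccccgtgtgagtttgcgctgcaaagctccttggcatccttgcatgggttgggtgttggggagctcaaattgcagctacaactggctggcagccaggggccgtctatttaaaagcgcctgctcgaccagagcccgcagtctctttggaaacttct
Igfbp6 (chr15:102143936-102144185, plus strand): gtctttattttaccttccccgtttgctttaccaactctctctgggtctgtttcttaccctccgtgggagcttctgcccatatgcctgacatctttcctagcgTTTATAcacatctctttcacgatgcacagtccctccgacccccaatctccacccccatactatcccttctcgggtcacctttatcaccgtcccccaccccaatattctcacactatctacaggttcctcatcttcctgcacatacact
Igf2r (chr17:12769707-12769956, minus strand): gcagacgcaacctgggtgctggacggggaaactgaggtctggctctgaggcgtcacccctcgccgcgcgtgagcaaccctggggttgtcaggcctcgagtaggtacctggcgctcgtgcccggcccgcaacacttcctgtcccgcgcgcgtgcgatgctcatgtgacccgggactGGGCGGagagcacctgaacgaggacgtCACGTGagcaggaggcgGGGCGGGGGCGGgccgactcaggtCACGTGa
Igfbp7 (chr5:77408046-77408295, minus strand): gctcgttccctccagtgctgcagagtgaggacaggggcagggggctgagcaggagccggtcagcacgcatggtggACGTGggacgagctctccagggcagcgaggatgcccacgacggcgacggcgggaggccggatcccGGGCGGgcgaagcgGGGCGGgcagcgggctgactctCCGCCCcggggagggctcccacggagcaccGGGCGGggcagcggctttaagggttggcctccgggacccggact

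The windows of Igf2r and Igfbp7 held 3 and 4 GC boxes, and those of Igfbp4, Igfbp5 and Igfbp6 held none, against 32.7% of all 32851 promoter windows of that length with at least 1. TATAAA, found in 12.4% of all windows, stood 28 bases before the start of Igfbp4 and on the opposite strand of the Igfbp6 window. ACGTG, found in 16.6% of all windows, lay in the windows of Igfbp7 and Igf2r, in the latter as 2 copies of CACGTG, which reads as ACGTG on both strands. A window of Igf2 and a window of Igfbp2 held ACGTG as well, so that 4 of the 10 members had it before at least 1 of their starts. The members have 14 windows between them and the 16.6% counts single windows, so these shares cannot be compared. These matches describe the letters only.

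The reads on genes recovered from the deposited values were nearly equal in number over the libraries, between 12386048 and 12390428. The reason for this is not given, and the totals are below the mean number of paired-end reads that the study reports. Cort+/+ OGD-R replicate 1 and Cort-/- OGD-R replicate 3 stood apart, with 0.106% and 0.127% of their reads on ribosomal RNA genes, against 7.87% to 16.2% in the other 8. Cort itself had 1 or 2 reads in each Cort+/+ NX/NG library, at most 1 in each Cort+/+ OGD-R library and 0 in the 4 Cort-/- libraries, so the genotype could not be checked at this depth, since a count of 0 allows up to 3 reads. Endothelial markers summed to 950 to 1383 RPKM (reads scaled to gene length and library size) and were detected in each library, while astrocyte, oligodendrocyte and neuron markers stayed below 1 RPKM in sum. Markers listed for smooth muscle (995 to 1777 RPKM in sum) and for fibroblasts (85.0 to 342.9 RPKM) were also present. The smooth muscle sum was mostly Acta2 and Tagln, with means of 993 and 647 RPKM in Cort+/+ NX/NG libraries. Cnn1 (13.9 RPKM), Myh11 (1.41 RPKM) and Des (0.202 RPKM) had low means there. In such bulk samples fewer cells of a type and less RNA per cell cannot be told apart.

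**Figure D1:**
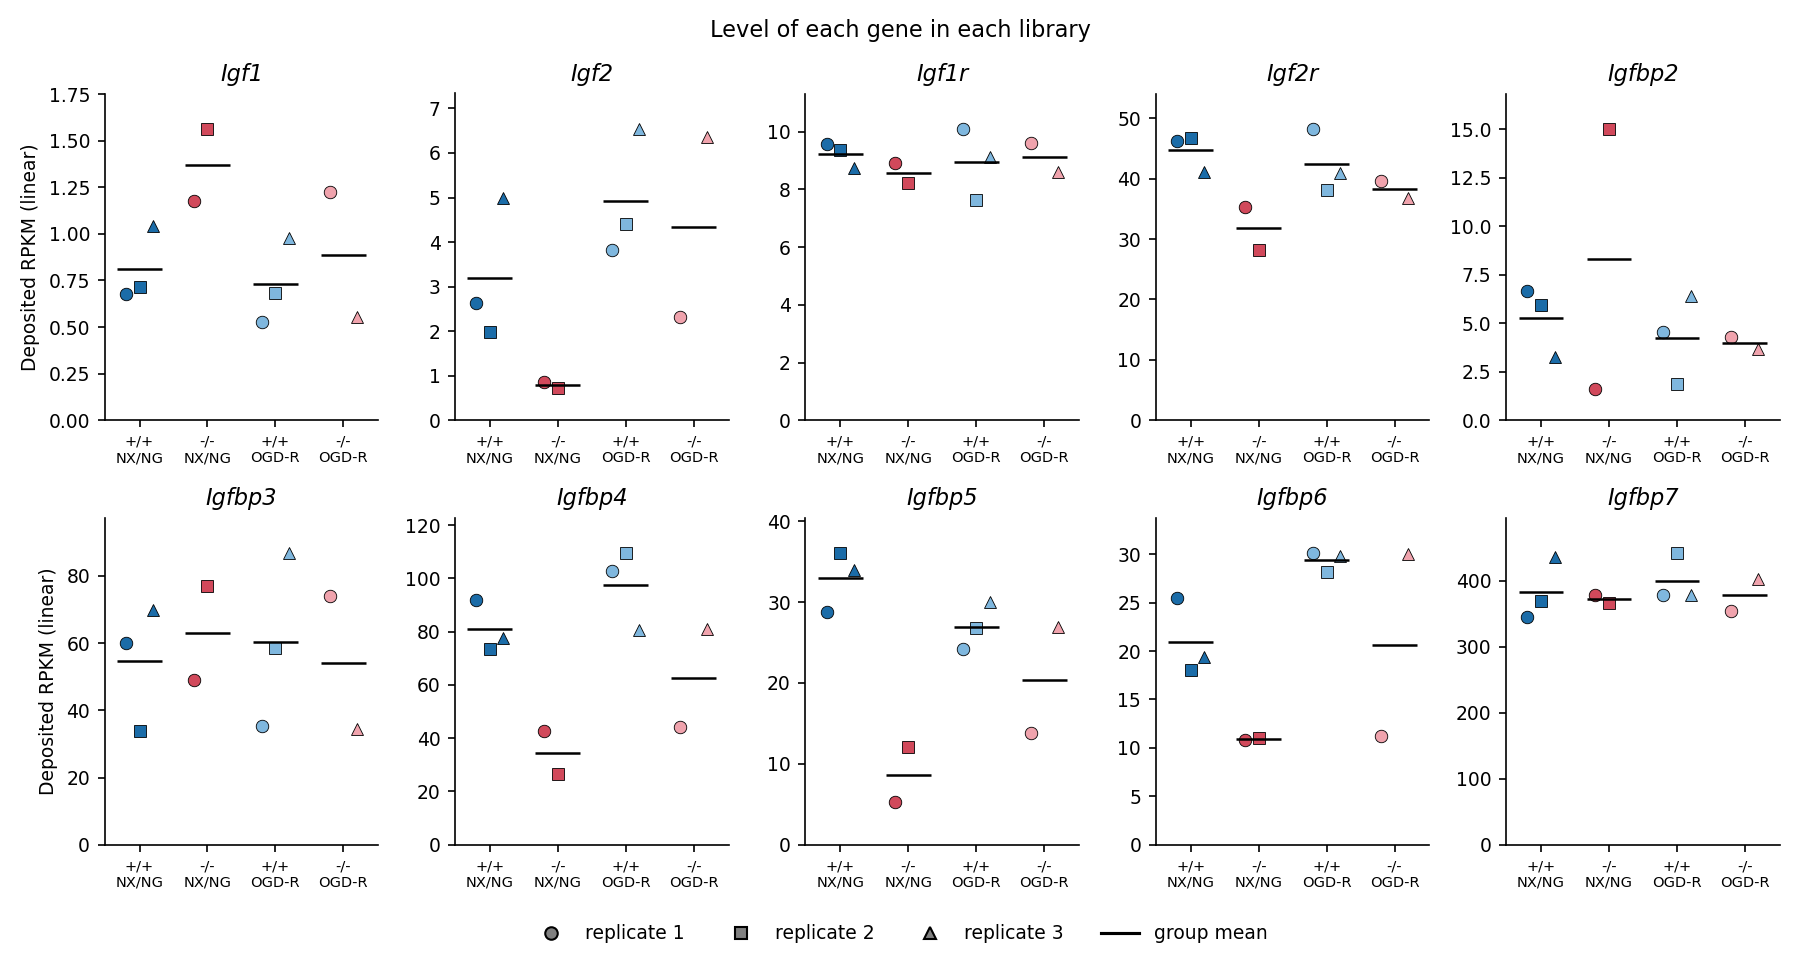
Deposited RPKM on a linear axis from 0 for each of the 10 genes, with 1 point per library, shapes for the replicate number and a line at the group mean. The 2 Cort-/- NX/NG libraries lie below the 3 Cort+/+ NX/NG libraries for Igf2, Igf2r, Igfbp4, Igfbp5 and Igfbp6 and above them for Igf1. The 2 Cort-/- OGD-R libraries lie far apart for Igf1, Igf2, Igfbp3, Igfbp4, Igfbp5 and Igfbp6. Igfbp2 and Igfbp3 also spread widely among the Cort+/+ OGD-R libraries (3.45-fold and 2.46-fold).

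BECs held far more binding protein than ligand RNA. In Cort+/+ cells under NX/NG the order of the levels per length ran from Igfbp7 (383 ± 47.1 RPKM, SD, n = 3) through Igfbp4 (81.0 ± 9.51), Igfbp3 (54.6 ± 18.6), Igf2r (44.7 ± 3.08), Igfbp5 (32.9 ± 3.75), Igfbp6 (20.95 ± 3.95), Igf1r (9.22 ± 0.442), Igfbp2 (5.28 ± 1.81) and Igf2 (3.20 ± 1.58) to Igf1 (0.811 ± 0.201). Neighbours in this order did not overlap between libraries, except Igfbp3 with Igf2r and Igfbp2 with Igf2. Igfbp7 was above 99.7% of the genes listed in all 4 groups and Igf1 stood near the middle, above 51.9% in Cort+/+ cells under NX/NG. In Cort-/- cells under NX/NG, Igfbp3 (63.0 ± 19.6 RPKM, n = 2) preceded Igfbp4 (34.6 ± 11.6) and Igf1 (1.37 ± 0.274) preceded Igf2 (0.782 ± 0.0948), with no overlap in either pair. Igfbp4 overlapped with Igf2r there, and Igfbp6 overlapped with Igfbp5, Igfbp5 with Igf1r and Igf1r with Igfbp2. After OGD-R the group means ran in the order Igfbp7, Igfbp4, Igfbp3, Igf2r, Igfbp6, Igfbp5, Igf1r, Igf2, Igfbp2 and Igf1 in both genotypes. In both, Igfbp4 overlapped with Igfbp3, Igfbp3 with Igf2r, Igfbp6 with Igfbp5 and Igf2 with Igfbp2. Single libraries departed from this order. Igfbp3 exceeded Igfbp4 in Cort-/- OGD-R replicate 1 (74.0 and 44.1 RPKM) and in Cort+/+ OGD-R replicate 3 (86.8 and 80.4 RPKM).

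The comparison of Cort-/- with Cort+/+ BECs under NX/NG asks what the lack of cortistatin changes in uninjured endothelium. In this comparison 6 members did not overlap between the genotypes, 5 of them lower in Cort-/- libraries (Igf2, Igf2r, Igfbp4, Igfbp5 and Igfbp6) and Igf1 higher, where 23.2% of all 29965 genes tested did not overlap (12.3% lower and 10.8% higher). Among the 14220 genes that reached 1 RPKM in 2 libraries or more, 32.7% did not overlap. The same 6 members had an unadjusted p under 0.05 with limma, against 8.39% of all genes (4.82% lower and 3.56% higher). None was called by limma at an adjusted p of at most 0.05, and neither was any other gene (0% of genes tested, while 2513 had an unadjusted p under 0.05). On the reads recovered from the table, limma-voom called Igfbp5, Igfbp4 and Igf2r, all lower in Cort-/- cells, against 0.42% of all genes (126 genes, of which 106 or 0.354% of those tested were lower).

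Igf2 encodes the growth factor that predominates in fetal life and is expressed from the paternal allele in most tissues, though allelic expression was not measured here. Its level was 2.64, 1.98 and 4.98 RPKM in Cort+/+ NX/NG replicates 1, 2 and 3 and 0.849 and 0.715 RPKM in Cort-/- NX/NG replicates 1 and 2. These values rest on 149 to 329 and on 60 and 52 reads. Both Cort-/- libraries were below each Cort+/+ library, and the log2 fold change (on log2 of RPKM + 0.1) was -1.80 ± 0.40 (SE), a level 3.49-fold lower, with a limma adjusted p of 0.351. Limma-voom gave an adjusted p of 0.106. The annotation places Gm49394 over Igf2 on the same strand, with 3596 exonic bases in common, and its read count was 94.6% to 99.3% of that of Igf2 in each library, so the same reads may stand behind both genes.

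Igf1, the ligand that mediates much of growth hormone action, was the least abundant member in Cort+/+ cells. It was at 0.675, 0.715 and 1.04 RPKM in the Cort+/+ NX/NG libraries and at 1.18 and 1.57 RPKM in the Cort-/- NX/NG libraries. The groups did not overlap, with a log2 fold change of 0.70 ± 0.27, 1.63-fold higher in Cort-/- cells (limma adjusted p = 0.588). Within libraries, Igf1 thus made up 17.3% to 26.5% of the summed ligand RPKM in Cort+/+ cells and 58.1% and 68.6% in Cort-/- cells under NX/NG. This share does not depend on how libraries were scaled to each other.

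Igf2r, the scavenger receptor that also sorts mannose-6-phosphate tagged enzymes to the lysosome, had 46.3, 46.7 and 41.2 RPKM in Cort+/+ NX/NG libraries and 35.4 and 28.1 RPKM in Cort-/- NX/NG libraries. The groups did not overlap and the log2 fold change was -0.50 ± 0.12, 1.41-fold lower in Cort-/- cells, with an adjusted p of 0.375 in limma and 0.0469 in limma-voom. Igf1r, the signalling receptor, did not separate the genotypes, at 9.58, 9.36 and 8.73 RPKM in Cort+/+ and 8.90 and 8.23 RPKM in Cort-/- libraries. Its log2 fold change was -0.11, with a 95% interval from -0.29 to 0.08 (limma adjusted p = 0.688). Igf2r exceeded Igf1r 4.72- to 4.99-fold in Cort+/+ libraries and 3.98- and 3.42-fold in Cort-/- libraries under NX/NG.

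Among the binding proteins, Igfbp5 differed most between the genotypes. Its product associates with extracellular matrix and is made by many mesenchymal cells. Igfbp5 stood at 28.8, 36.1 and 34.0 RPKM in Cort+/+ NX/NG libraries and at 5.30 and 12.1 RPKM in Cort-/- NX/NG libraries, so that the highest Cort-/- value was below each Cort+/+ value. The log2 fold change was -2.02 ± 0.35, 4.06-fold lower in Cort-/- cells, with an adjusted p of 0.252 in limma and 0.0106 in limma-voom. Leaving out Cort-/- NX/NG replicate 1 gave -1.44 and a limma adjusted p of 0.115. Leaving out replicate 2 gave -2.61 and a limma adjusted p of 0.0349, in a fit that called 683 genes, 659 of them higher, and assumed that the lone Cort-/- library varies like the other group.

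Igfbp4, whose product is an inhibitor of IGF action that is inactivated by the protease PAPP-A, had 91.7, 73.5 and 77.7 RPKM in the Cort+/+ NX/NG libraries and 42.8 and 26.4 RPKM in the Cort-/- NX/NG libraries. It was 2.39-fold lower in Cort-/- cells, with a log2 fold change of -1.26 ± 0.22 and an adjusted p of 0.256 in limma and 0.0119 in limma-voom. Igfbp6, whose product prefers IGF-2 over IGF-1, had 25.5, 18.1 and 19.3 RPKM against 10.8 and 11 RPKM. The Cort-/- values nearly coincided and lay below each Cort+/+ value, with a log2 fold change of -0.92 ± 0.16, 1.89-fold lower (adjusted p = 0.247 in limma and 0.0572 in limma-voom).

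The other 3 binding proteins overlapped between the genotypes. Igfbp3, the main carrier of IGF in the circulation, ranged from 33.9 to 69.8 RPKM in Cort+/+ and from 49.1 to 76.9 RPKM in Cort-/- libraries under NX/NG (log2 fold change 0.23, 95% interval -0.71 to 1.18). Igfbp7 had 345, 369 and 436 RPKM in Cort+/+ and 378 and 366 RPKM in Cort-/- libraries (log2 fold change -0.03, 95% interval -0.35 to 0.29). Its last exon overlaps Polr2b on the opposite strand by 85 bases. Igfbp2, whose product is abundant in fetal life, was at 1.62 and 15.0 RPKM in the Cort-/- NX/NG libraries, a 9.27-fold difference between replicates on 37 and 353 reads. Its log2 fold change of -0.01 therefore has a 95% interval from -2.47 to 2.45, and no difference in either direction could be detected.

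**Figure D2:**
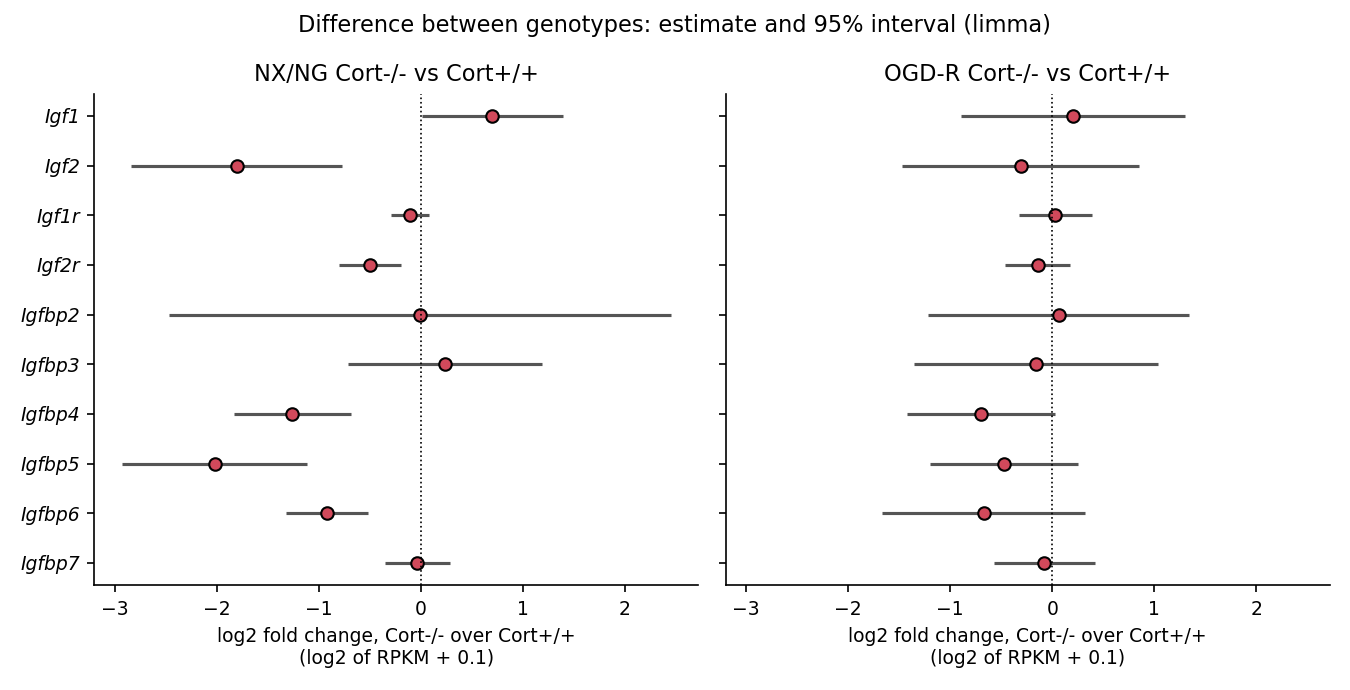
Log2 fold change of Cort-/- over Cort+/+ for each gene under NX/NG (left) and OGD-R (right), as limma estimates (points) with 95% intervals (lines) on a common axis, the dotted line marking no difference. Under NX/NG the intervals of Igf2, Igf2r, Igfbp4, Igfbp5 and Igfbp6 lie below 0 and that of Igf1 just above 0, before adjustment over genes, whereas under OGD-R all 10 intervals cover 0.

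Some of the transcripts listed for fibroblasts and pericytes moved with these values. The summed level of 8 fibroblast and leptomeningeal markers was 194 to 280.5 RPKM in Cort+/+ NX/NG libraries. It was 121 and 85.0 RPKM in Cort-/- NX/NG replicates 1 and 2. Of the 8, 3 (Col1a1, Col1a2 and Col3a1) were below each Cort+/+ library, while Pdgfra was above. Dcn and Ogn overlapped, and Lum and Slc6a13 were near 0. For 6 pericyte markers the sums were 17.9 to 21.4 and 7.59 and 10.2 RPKM, with Cspg4, Pdgfrb and Rgs5 lower and Abcc9 and Kcnj8 at or near 0. The 8 endothelial markers summed to 950 to 1192 RPKM in Cort+/+ and to 1211 and 1356 RPKM in Cort-/- libraries. The part of these transcripts in the differences of the IGF genes was not tested.

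Over the 10 libraries, Igfbp4 followed the fibroblast marker sum with a Pearson r of 0.92 on log2 scales. Igfbp6 did so with 0.80, Igf2r with 0.76, Igf2 with 0.74 and Igfbp5 with 0.71, and Igf1 ran against it with -0.89. This sum was mostly Col1a1, Col1a2 and Col3a1, with means of 145, 51.6 and 50.5 RPKM in Cort+/+ NX/NG libraries. The highest mean among the other markers there was 1.71 RPKM (Ogn), so the coefficients describe mainly these collagens. Igfbp5 (r = 0.92) and Igf2 (0.77) were closer to the pericyte sum, which Igfbp4 (0.81) and Igfbp6 (0.75) also followed. With the endothelial sum, r was 0.84 for Igf1, -0.82 for Igfbp4, -0.75 for Igfbp6, -0.73 for Igf2r, -0.62 for Igfbp5 and -0.40 for Igf2. Igfbp7 (r = 0.01) and Igf1r (r = 0.12) did not follow the fibroblast sum. These coefficients describe 10 libraries of 4 groups that share their genotype and environment, and carry no test.

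**Figure D3:**
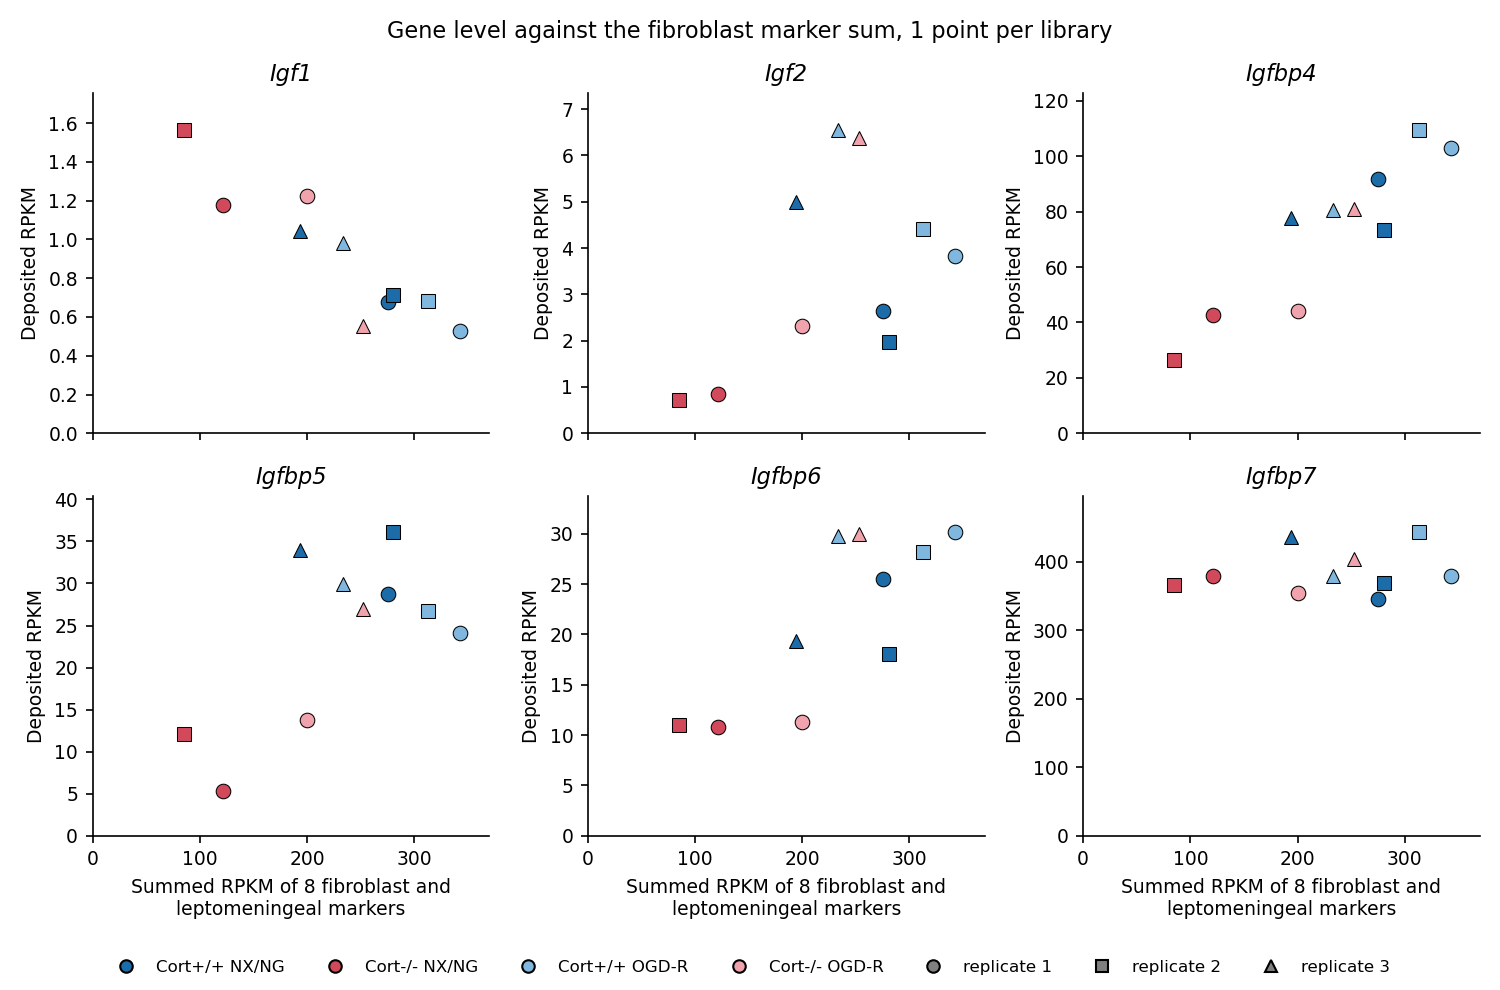
Deposited RPKM of 6 genes against the summed RPKM of 8 fibroblast and leptomeningeal markers, mostly Col1a1, Col1a2 and Col3a1, both on linear axes. Each point is 1 library, with colours for the groups and shapes for the replicate number. Cort-/- NX/NG replicates 1 and 2 (red) have the lowest marker sums (121 and 85.0 RPKM) and the lowest Igfbp4 (42.8 and 26.4 RPKM, in that order). They also have 2 of the 3 highest Igf1 values, while Igfbp7 is level across the range.

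After OGD-R the comparison between genotypes asks whether injured cells differ. Each of the 10 members overlapped between the genotypes, where 14.3% of 29775 genes tested did not overlap (16.2% of those reaching 1 RPKM in 2 libraries or more), and none had an unadjusted p under 0.05 with limma, against 3.42% of all genes. No gene was called (0% of genes tested by limma, of which 1019 passed 0.05 before adjustment). The 5 genes called by limma-voom (0.0168% of genes tested) held no member, and Igfbp4, Igfbp5 and Igfbp6 passed 0.05 before adjustment in it, as did 4.04% of genes. The nearest in limma was Igfbp4, with a log2 fold change of -0.70 ± 0.29 and an adjusted p of 0.978.

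The overlap went with a divide between the 2 Cort-/- OGD-R libraries. Igfbp6 had 11.3 RPKM in replicate 1 and 29.99 RPKM in replicate 3, against 30.1, 28.2 and 29.8 RPKM in the Cort+/+ OGD-R libraries. Igfbp4 had 44.1 and 80.8 RPKM against 103, 109.5 and 80.4 RPKM, and Igfbp5 had 13.8 and 27.0 RPKM against 24.2, 26.7 and 29.98 RPKM. For each of these genes, Cort-/- replicate 1 was below every Cort+/+ library and replicate 3 lay within their range.

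Igf2 showed the same split, at 2.31 and 6.36 RPKM in Cort-/- OGD-R replicates 1 and 3 against 3.82, 4.41 and 6.55 RPKM in Cort+/+. Igf1 was the mirror image, at 1.22 and 0.555 RPKM against 0.529, 0.682 and 0.980 RPKM. Without Cort-/- replicate 3, the log2 fold changes were -1.37 for Igfbp6 (called by limma, adjusted p = 0.0276), -1.13 for Igfbp4, -0.95 for Igfbp5 and -1.02 for Igf2. Without replicate 1 they were 0.03, -0.26, 0.01 and 0.40. In each case the lone Cort-/- library was assumed to vary like the Cort+/+ libraries, and 626 and 710 genes were called over all, against 0 with both.

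Cort-/- OGD-R replicate 3 is also a library low in ribosomal RNA, as is Cort+/+ OGD-R replicate 1. Their Igf1 values (0.555 and 0.529 RPKM) and Igfbp3 values (34.4 and 35.3 RPKM) were the lowest of the 5 OGD-R libraries. Over the 10 libraries, the Pearson r with the percentage of ribosomal RNA was 0.65 for Igfbp3 and 0.41 for Igf1, as a description. A heat map of the OGD-R libraries in the study has no column for that Cort+/+ replicate. Without it, the log2 fold changes were -0.47 for Igf2, -0.65 for Igfbp4, -0.55 for Igfbp5 and -0.65 for Igfbp6, and none was called by limma. Leaving out both libraries gave log2 fold changes between the genotypes of -1.18 for Igf2, -1.09 for Igfbp4, -1.03 for Igfbp5 and -1.35 for Igfbp6. None of them was called by limma. The summed fibroblast markers were 200.1 RPKM in Cort-/- replicate 1 and 253 RPKM in replicate 3, against 233 to 343 RPKM in Cort+/+ OGD-R libraries. Epithelial markers (Epcam, Cdh1 and keratins) summed to 37.6 RPKM in Cort-/- replicate 1 and 8.83 RPKM in replicate 3, against 1.43 to 7.46 RPKM in Cort+/+ OGD-R libraries. The highest epithelial sum of the 10 libraries was in Cort+/+ NX/NG replicate 2 (49.97 RPKM). Cort+/+ NX/NG replicates 1 and 3 had 3.96 and 3.88 RPKM, and Cort-/- NX/NG replicates 1 and 2 had 4.49 and 13.7 RPKM. Smooth muscle markers (995 and 1482 RPKM) and endothelial markers (1383 and 1085 RPKM) also differed between Cort-/- OGD-R replicates 1 and 3. The part of these transcripts or of the ribosomal RNA content was not tested.

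Igfbp7 had 354 and 403 RPKM in Cort-/- replicates 1 and 3 against 379, 442 and 378 RPKM in Cort+/+ OGD-R libraries, so that replicate 1 was the lowest here too, by a small margin. Igf2r had 39.6 and 36.8 RPKM in Cort-/- and 48.3, 38.1 and 40.9 RPKM in Cort+/+ OGD-R libraries, a log2 fold change of -0.14 with a 95% interval from -0.46 to 0.18. For Igf1r the interval ran from -0.33 to 0.39 and for Igfbp7 from -0.57 to 0.41.

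Setting OGD-R against NX/NG within a genotype asks how cells respond to the insult. Levels here are RPKM scaled jointly over the 10 libraries, since the tables were scaled apart. In Cort+/+ cells, Igfbp6 did not overlap between the environments (26.1, 18.5 and 19.8 RPKM under NX/NG and 29.4, 27.5 and 29.0 RPKM after OGD-R), being 1.35-fold higher after OGD-R. Igfbp5 did not overlap either (29.5, 36.9 and 34.9 RPKM, then 23.5, 26.1 and 29.2 RPKM), being 1.28-fold lower. Both had an unadjusted limma p under 0.05 (5.48% of 27075 genes tested did), both had an adjusted p of 0.881, and 10.2% of genes did not overlap (12.7% of those reaching 1 RPKM in 2 libraries or more). No member was among the 9 genes called by limma (0.0332% of genes tested) or was the 1 gene called by limma-voom (0.00369%). Without Cort+/+ OGD-R replicate 1, which is low in ribosomal RNA, the log2 differences were -0.28 for Igfbp5 and 0.41 for Igfbp6.

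The other 8 members overlapped in Cort+/+ cells. Igf2 had 2.70, 2.03 and 5.11 RPKM under NX/NG and 3.72, 4.29 and 6.38 RPKM after OGD-R, a log2 difference of 0.60 with a 95% interval from -0.26 to 1.47. The intervals were narrow for Igf1r (-0.39 to 0.15), Igf2r (-0.40 to 0.10) and Igfbp7 (-0.35 to 0.33), and wide for Igfbp3 (-0.90 to 0.98) and Igfbp2 (-1.64 to 0.68).

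In Cort-/- cells Igf2 was at 0.873 and 0.736 RPKM under NX/NG and at 2.25 and 6.20 RPKM after OGD-R. This is a log2 difference of 2.09 ± 0.53, 4.27-fold higher after OGD-R, with a limma adjusted p of 0.922. Igfbp5 was also higher after OGD-R in both libraries (5.45 and 12.4 RPKM, then 13.5 and 26.3 RPKM) and Igf1 lower (1.21 and 1.61 RPKM, then 1.19 and 0.541 RPKM). Without Cort-/- OGD-R replicate 3, which is low in ribosomal RNA, the log2 differences were 1.38 for Igf2, 0.70 for Igfbp5 and -0.21 for Igf1. These 3 members did not overlap between the environments, and neither did 30.3% of 26523 genes tested (34.2% of those reaching 1 RPKM in 2 libraries or more). Igf2 had an unadjusted limma p under 0.05, as had 4.08% of these genes. No gene was called by limma or limma-voom (0% of genes tested, while 1082 and 1051 genes, the latter 3.96%, passed 0.05 before adjustment). The members that passed 0.05 before adjustment in limma-voom were Igf1, Igf2, Igfbp4 and Igfbp5.

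The interaction of genotype and environment tests whether the response differs between the genotypes. For Igfbp5 it was 1.54 ± 0.50 on the log2 scale, with an unadjusted limma p of 0.0146 and an adjusted p of 1.00. It was the only member with an unadjusted limma p under 0.05, as had 2.86% of 27321 genes, while 3 genes were called (0.011%), none a member. With limma-voom no gene was called (0%), and Igf2 and Igfbp5 had an unadjusted p under 0.05 (2.71% of genes did). By p-value, Igf2 came next with 1.49 ± 0.68, then Igf2r with 0.35 ± 0.18, while Igfbp4 (0.56 ± 0.40), Igf1 (-0.51 ± 0.53) and Igfbp3 (-0.40 ± 0.67) had larger but less certain values than Igf2r. Without both libraries low in ribosomal RNA the interaction was 0.98 for Igfbp5, 0.62 for Igf2 and 0.50 for Igf2r. For Igf1r the interval of the interaction ran from -0.25 to 0.51 and for Igfbp7 from -0.54 to 0.44. The comparisons share libraries, so the environment differences and the interaction are not independent of the difference under NX/NG.

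The make-up of the binding protein RNA within each library was also described, since it does not depend on scaling between libraries. Igfbp7 made up 61.8% to 77.5% of the summed RPKM of the 6 binding proteins. Of the remainder, Igfbp3 made up 20.2% to 34.2% in Cort+/+ and 44.8% and 54.3% in Cort-/- libraries under NX/NG. After OGD-R it made up 17.9% to 37.2% in Cort+/+ libraries and 50.2% and 19.6% in Cort-/- replicates 1 and 3. Igfbp4 exceeded Igfbp3 in 5 of the 6 Cort+/+ libraries, with ratios from 0.927 to 2.91, and in 1 of the 4 Cort-/- libraries, with ratios of 0.871 and 0.344 under NX/NG and 0.596 and 2.35 after OGD-R.

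**Figure D4:**
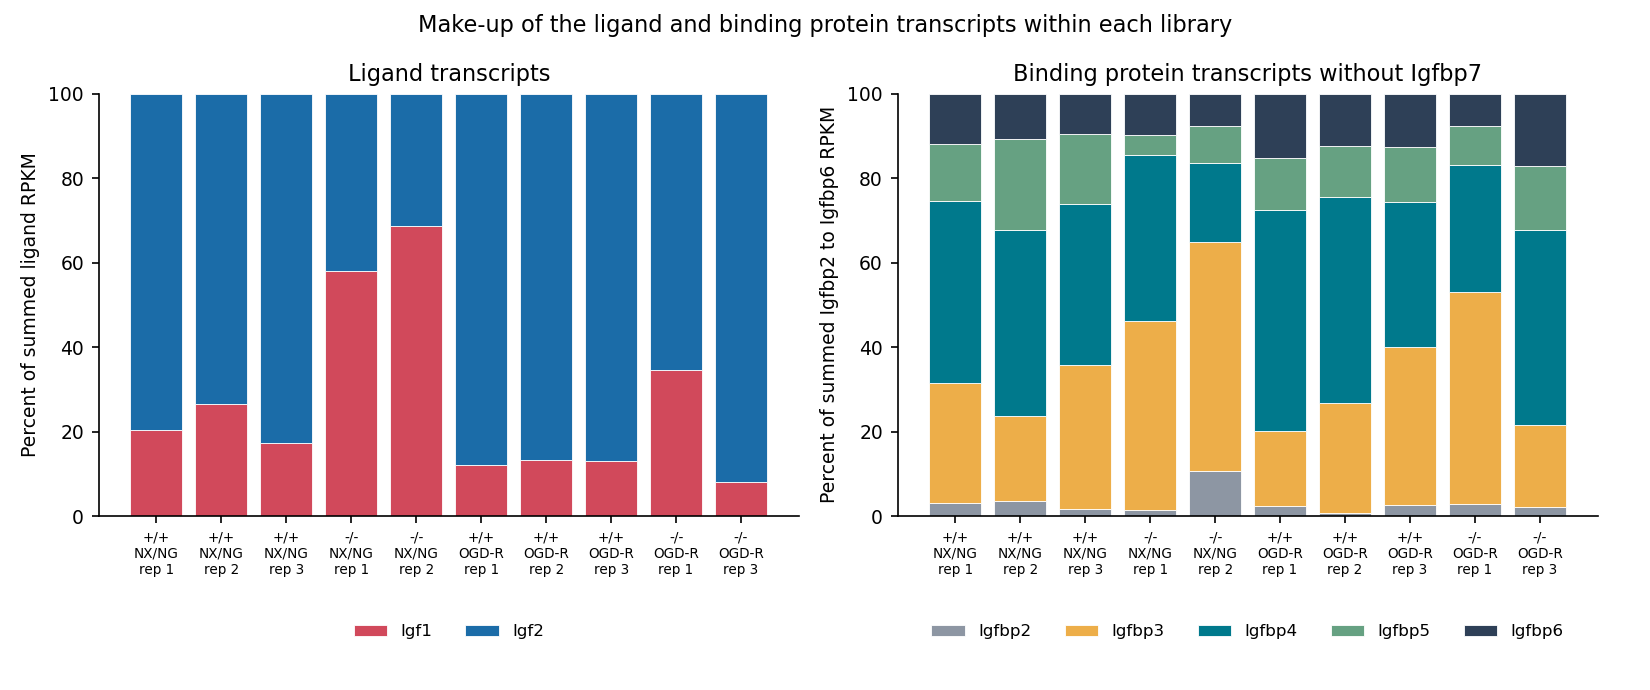
Share of Igf1 and Igf2 in the summed ligand RPKM (left) and of Igfbp2 to Igfbp6 in their summed RPKM (right), in percent, with 1 bar per library. Igf1 makes up 58.1% and 68.6% of the ligand bars of the Cort-/- NX/NG libraries and 34.6% and 8.02% of those of Cort-/- OGD-R replicates 1 and 3, against 12.2% to 26.5% in the 6 Cort+/+ libraries.

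Of 49 further genes of the pathway, 47 were tested under NX/NG, and 9 of them had an unadjusted limma p under 0.05 between the genotypes, 8 lower and 1 higher in Cort-/- cells (19.1%, against 8.39% of all genes). None was called by limma, and the median log2 fold change of the 47 was -0.05, against -0.01 over all genes and -0.30 over the 10 members. Of 22 receptor substrates and PI3K-AKT genes, 5 were lower and 1 higher. Akt2, the AKT isoform tied to insulin action, had 4.94, 4.93 and 4.43 RPKM in Cort+/+ and 3.62 and 2.99 RPKM in Cort-/- libraries, a log2 fold change of -0.52 ± 0.12. Pik3r2, a regulatory subunit of PI3K (-0.57 ± 0.14), Grb10, an adaptor that restrains the receptors (-0.50 ± 0.13), and Foxo3, a transcription factor held back by AKT (-0.31 ± 0.09), also had lower values. The single gene with a higher value was Pik3cb, a catalytic subunit of PI3K (0.47 ± 0.14), and the lower ones also held Ccn3 (-0.77 ± 0.26) and Grb14 (-0.95 ± 0.33), all 3 named after their values were seen.

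Other genes around IGF action were measured as well. Igf2bp3, which encodes a protein that binds Igf2 mRNA, had 1.38, 1.22 and 0.914 RPKM in Cort+/+ and 0.397 and 0.511 RPKM in Cort-/- libraries under NX/NG (log2 fold change -1.19 ± 0.27). H19, named here after its values were seen because it shares an imprinting control region with Igf2, had 38.6, 21 and 23.9 RPKM against 15.1 and 7.48 RPKM (-1.33 ± 0.39). After OGD-R, H19 was at 16.4 and 33.6 RPKM in Cort-/- replicates 1 and 3 against 29.5 to 47.5 RPKM in Cort+/+ libraries. Among 5 proteases of binding proteins and their inhibitors none passed 0.05 before adjustment under NX/NG, and Pappa, the protease of IGFBP-4, had 1.42 to 2.34 RPKM in Cort+/+ and 1.199 and 1.40 RPKM in Cort-/- libraries. Igfbp1, Igfals and Igfbpl1 stayed at or below 0.367 RPKM, and Igfbp1 was listed under NX/NG only.

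After OGD-R, 3 of 46 pathway genes had an unadjusted limma p under 0.05 between the genotypes (6.52%, against 3.42% of all genes), all higher in Cort-/- cells and none called. They were Pik3cb (0.41 ± 0.13), Stc2, a PAPP-A inhibitor (0.64 ± 0.22), and the low Igfbpl1 (1.17 ± 0.44). Between the environments, 5 of 46 had one in Cort+/+ cells (10.9%, against 5.48%). Among them, Pik3r3 (-0.24 ± 0.06), Foxo3 (-0.25 ± 0.09) and Sos1 (-0.31 ± 0.11) had lower values after OGD-R and Gab1 (0.41 ± 0.15) a higher one. In Cort-/- cells 1 of 46 (Pik3r3, -0.23 ± 0.08) had one, against 4.08% of all genes, and for the interaction 1 of 46 did (Foxo3, 0.36 ± 0.14), against 2.86%.

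Correlations between members were described over the same 10 libraries, so they restate the group differences above and add no separate evidence. Pearson's r of log2 levels was 0.90 for Igfbp4 with Igfbp6, 0.83 for Igf2 with Igfbp6 and 0.79 for Igf2 with Igfbp4. It was 0.75 for Igfbp5 with Igfbp6 and -0.86 for Igf1 with Igfbp4. Igf2r was less close to some of them, with 0.71 for Igfbp4, 0.56 for Igfbp5, 0.47 for Igfbp6 and 0.40 for Igf2. Igf1 had 0.73 with Igfbp3, which overlapped between the genotypes. Among 13788 other genes whose mean reached 1 RPKM, the gene closest to Igfbp4 was Cd248 (r = 0.98), followed by Nab2 and Col6a1 (0.98 each). For Igfbp6 it was Thra (0.97), for Igfbp5 Elobl (0.95), for Igfbp3 Nmd3 (0.98), for Igf2r Mtss2 (0.96), for Igf1r Atf7ip (0.96), for Igfbp7 Rnf113a1 (0.90) and for Igfbp2 Ndufaf5 (0.87). For Igf2 it was the overlapping Gm49394 (1.00), followed by Btbd2 (0.97). Igf1 had a mean below 1 RPKM and was not compared in this way. With so many genes and 10 libraries these coefficients are a description, without a test.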

How the data were processed

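Primary BECs were profiled by RNA-seq in 4 groups of 2 or 3 libraries, grouped by the labels. The deposited RPKM values were computed by the authors with their reanalyzerGSE pipeline, per kilobase of gene length and scaled over the 5 libraries of an environment; edgeR is named in the submitters' processing notes, and the aligner, counter, strand setting and build are not given in the sources used here. The labels and the methods differ on library kit, RNA input and read length. The authors' own comparison columns (fold changes and p-values), their group means and 10 columns of expression categories were not used.

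RPKM times gene length gave whole reads within 0.05 for at least 99.996% of values. These recovered read counts, rebuilt from the deposited values, were used for TMM scaling over all 10 libraries (environment comparisons and interaction, 27321 genes) and for limma-voom. The main test was limma-trend (limma 3.58.1, R 4.3.3) on log2(RPKM + 0.1), over genes above 0 and the groups compared, two-sided, with Benjamini-Hochberg adjustment over all genes and a threshold of 0.05. It was also run on simulated reads with the same variability setting for all genes, which is simpler than these data, and no result here rests on that run. Intervals cover 95%; a count of 0 allows 3 reads, for counting error only. Positions come from GENCODE vM21 and promoters from RefSeq, by symbol, for all 10 members. The members and gene lists were chosen with earlier results of these data known. Named besides the members were pathway genes at an unadjusted p under 0.05 (at most 5 per comparison, with any called) and, per member whose mean reached 1 RPKM, the 3 genes of highest Pearson r. H19, Pik3cb, Ccn3, Grb14, Pappa, Igfbp1 and Igfals under NX/NG were named after their values were seen. The alternatives tried were quantile normalization, a pseudocount of 1, a filter that kept genes reaching 1 RPKM in 2 or more libraries, all groups in one fit, limma-voom, each replicate left out, the 2 libraries low in ribosomal RNA left out, a replicate block, and other scalings; a term for those 2 libraries was added after the data were seen. One pathway gene that the rule names is not reported here.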

Additional observations from a re-analysis of the deposited data

Results flagged for a closer look

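Igfbp5 differed between OGD-R and NX/NG libraries in opposite directions in the genotypes, neither difference was called (limma adjusted p = 0.881 in Cort+/+ and 0.922 in Cort-/- cells), and the difference between them was itself tested. On the joint scale it was lower in the 3 Cort+/+ OGD-R libraries than in each Cort+/+ NX/NG library and higher in both Cort-/- OGD-R libraries than in each Cort-/- NX/NG library. The limma interaction was 1.54 on the log2 scale, with an unadjusted p of 0.0146 and an adjusted p of 1.00. It was 1.06 without Cort-/- OGD-R replicate 3, 2.02 without Cort-/- OGD-R replicate 1 and 0.98 without the 2 libraries low in ribosomal RNA, and no fit called it. No group held enough libraries for a search for single outlying samples.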

How the results depend on the processing

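Of 738 recomputed fold changes of the members, 677 kept their direction and their side of the threshold, 5 came to be called and 56 changed sign, in 24 of 50 results, the largest of which was 0.67 in size in the main fit. Called were Igfbp4, Igfbp5 and Igf2r (limma-voom, NX/NG), Igfbp5 without Cort-/- NX/NG replicate 2 and Igfbp6 without Cort-/- OGD-R replicate 3. The causes were not tested. The fewest reads per library were 37 for Igfbp2, 52 for Igf2 and 72 for Igf1, and each Cort-/- group holds 2 libraries.

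Changes of sign in the NX/NG comparison were Igfbp2 with a pseudocount of 1 (0.092), Igfbp7 with quantile normalization (0.016), and, leaving out 1 replicate at a time, Igfbp2 (-1.58 to 1.56), Igfbp3 (-0.088 to 0.56) and Igfbp7 (-0.11 to 0.062). Between genotypes after OGD-R they were Igfbp7 with quantile normalization (0.010), Igfbp3 with the ribosomal RNA term (0.015), Igf2r (0.0064) and Igfbp3 (0.054) without both libraries low in ribosomal RNA, and, leaving out 1 replicate, Igf1 (-0.31 to 0.71), Igf1r (-0.077 to 0.12), Igf2 (-1.02 to 0.40), Igfbp2 (-0.43 to 0.43), Igfbp3 (-0.71 to 0.39), Igfbp5 (-0.95 to 0.0057), Igfbp6 (-1.37 to 0.031) and Igfbp7 (-0.17 to 0.016). In Cort+/+ cells between environments they were Igfbp7 with the term and without those libraries (0.029 each) and, leaving out 1 replicate, Igfbp2 (-0.84 to 0.020), Igfbp3 (-0.27 to 0.38) and Igfbp7 (-0.082 to 0.090). In Cort-/- cells they were Igfbp3 (0.19) and Igfbp6 (-0.031) under both of those settings and, leaving out 1 replicate, Igf1r (-0.069 to 0.088), Igfbp2 (-1.98 to 1.16), Igfbp3 (-0.91 to 0.19), Igfbp6 (-0.031 to 1.37) and Igfbp7 (-0.15 to 0.037). In the interaction they were Igfbp2 with a pseudocount of 1 (-0.074), Igfbp6 without those libraries (-0.44) and, leaving out 1 replicate, Igfbp2 (-1.50 to 1.64), Igfbp3 (-0.95 to 0.15), Igfbp6 (-0.46 to 0.94) and Igfbp7 (-0.15 to 0.044).

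The number of genes called under NX/NG (0) was 20 with a pseudocount of 1, 4 with all groups in 1 fit, 126 with limma-voom and 0 to 683 leaving out 1 replicate, with 543 and 683 without Cort-/- replicates 1 and 2. For members it was 3 with limma-voom and 0 to 1 leaving out 1 replicate. After OGD-R (0 genes) it was 7 with all groups in 1 fit, 5 with limma-voom and 0 to 710 leaving out 1 replicate, with 710 and 626 without Cort-/- replicates 1 and 3, and for members 0 to 1. Between environments in Cort+/+ cells (9 genes), the count was 5 with a pseudocount of 1, 1 with limma-voom and 0 with the filter at 1 RPKM, all groups in 1 fit, any replicate left out, both libraries low in ribosomal RNA left out, or their term. For the interaction (3 genes), the count was 0 with a pseudocount of 1, the filter, limma-voom, those libraries left out or their term, and 0 to 8 leaving out 1 replicate.

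Replicate numbers were not shown to pair the samples, since deviations of same-numbered libraries correlated between -0.53 and 0.19. With the replicate block 0 genes were called in each comparison that could take it (9 and 3 without it in Cort+/+ cells and the interaction), and no member was called. Under the block Igfbp7 changed sign under NX/NG (0.062), and Igf1r (-0.077) and Igfbp2 (-0.43) did after OGD-R. No paired analysis was possible for Cort-/- cells between environments because these groups share 1 replicate number.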
